A study of Mus musculus with 42 samples.

Results

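Cells carrying the transcripts of uterine stromal cells, the fibroblast-like cells that lie between the lining epithelium and the muscle of the uterus, numbered 195 of the 13084 cells in which mitochondrial genes held under 10% of the UMIs, and of 15175 cells in all. A unique molecular identifier (UMI) marks 1 captured mRNA molecule. The share was 1.49% of the 13084 cells (exact binomial 95% CI 1.29% to 1.71%, which covers counting error only, as do all intervals given here). A cell was taken as stromal when it held at least 6 UMIs of Dcn, Col1a2, Col6a2, Igfbp7 and Sparcl1 together with at least 2 of these 5 genes detected, no UMI of Cd3e, Cd79a or Ncr1, and at most 2 UMIs of C1qa, C1qb and C1qc. Values of these gate genes chose the cells and are given as description only.

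The study profiled natural killer (NK) cells and related innate lymphocytes of the uterus in wild-type C57BL/6 females without treatment, either virgin or at gestational day (gd) 8.5, aged 8 to 12 weeks. Uteri of 5 virgin mice and of 2 gd8.5 mice were pooled within each state and digested, and live cells positive for CD45, NK1.1 and NKp46 at the surface were sorted, marked with sample tags, mixed and captured together. CD45 is the protein of Ptprc and is carried by leukocytes, so stromal cells are not a target of this sort. Beside them stood 34 bulk RNA libraries of tissue-resident NK (trNK) cells, 2 per group. Of these, 12 held untreated C57BL/6 cells sorted from virgin, gd6.5 or gd8.5 uteri, the last also split by CD55 and 4-1BB into CB_low, CB_int and CB_hi. The other 22 came from experiments in vitro with wild-type cells sorted from gd6.5 uteri. Per the study these cells were the trNK-V subgroup, negative or low for 4-1BB and CD55, in medium with IL-15. They were kept as control, with IL-21 or with IL-21 and the STAT3 inhibitor Stattic, or belong to a time course labelled 0, 6, 24 or 72 h without or with IL-21. The counts analysed here give no tag per cell, so virgin and gd8.5 cells cannot be told apart, all cells form 1 pooled sample, and no test between mice or states was possible. Levels are given as CPM, the UMIs of a gene summed over the cells of a class and scaled to a fixed total of UMIs. Bulk levels are CPM of read counts, not divided by transcript length. Levels are used to compare a gene between classes and not 1 gene with another.

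Stromal fibroblasts lay down the fibrillar collagens, proteoglycans and basement membrane proteins that hold the uterine wall. They carry receptors for oestrogen and progesterone, through which ovarian hormones act on the uterus, and in pregnancy they transform into decidual cells that enclose the embryo. They also secrete chemokines, growth factors and complement proteins that reach the NK cells lying among them.

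All 5 gate genes were detected in 127 of the 195 cells, 4 of them in 41 cells, 3 in 23 cells and 2 in 4 cells. Col1a2, a chain of type I collagen, had 6711 UMIs in 97.4% of the cells, and Dcn, the collagen-binding proteoglycan decorin, had 3845 UMIs in 92.8%. Sparcl1, Col6a2 and Igfbp7 were detected in 88.2%, 86.7% and 84.1% of the cells. The gate UMIs ranged from 6 to 577 per cell with a median of 43, so most of the cells lay far above the threshold. The 7 cells just inside it, with 6 to 8 gate UMIs, held 1 to 8 UMIs of the collagen genes Col1a1 and Col3a1 together (median 7), which the gate did not use. The 9 cells just outside, with 3 to 5 gate UMIs of at least 2 gate genes and otherwise within the gate, held 0 to 6 (median 2).

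Another 67 cells met the threshold on the gate genes and were left out for an immune transcript, 48 of them with an Ncr1 UMI and 23 with more than 2 C1q UMIs. Their gate UMIs had a median of 41, close to that of the 195 cells, and they had a median of 4235 UMIs in all. They held a median of 33 UMIs of 8 genes that leukocytes share (Ptprc, Coro1a, Laptm5, Cd52, Rac2, Lcp1, Tyrobp and Fcer1g), against a median of 2 in the stromal gate. Whether they, or the stromal cells with many leukocyte UMIs, were doublets, that is 2 cells captured together, was not tested. The doublet caller that was run marked no cell and was taken as not having worked. These 67 cells held 81.0% of the UMIs of the gate genes and 80.4% of the UMIs of the fibrillar collagens found outside the gate. Since they stand among the other cells in the comparisons that follow, ratios without them, a comparison chosen after seeing the data, are given for some genes. All ratios not marked so include these 67 cells, which changes their size unevenly from gene to gene. Without the 67 cells, Lum, Dpt, Lox and Esr1, whose ratios with them are given below, had ratios of 1122, 1287, 1309 and 156. Of 232 list genes and leading genes past the fold in either direction, 232 were past it without the 67 cells too, and the ratio rose to 1659 for Pdgfra, 713 for Pgr and 982 for Cxcl12. The 67 cells were picked by the gate genes and held most of the stromal RNA outside the gate. This count was therefore largely set in advance and is no check of the fold.

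The 195 stromal cells had a median of 2568 UMIs (874 to 21724) and 1384 genes, with a median mitochondrial share of 2.95%. For comparison, NK cells (5523 cells with an Ncr1 UMI), macrophages (971 cells with at least 6 C1q UMIs) and B cells (255 cells with at least 2 Cd79a UMIs) were gated, each with low limits on the stromal gate genes, so that the near absence of those 5 genes there was set by the gates. Their median depths were 5759, 3067 and 1780 UMIs. Outside the gate genes, 8373 genes had at least 10 UMIs in the stromal cells, of which 1899 lay at least 3-fold above all other cells (22.7%) and are called past the fold. Of the 6994 genes for which at least 10 UMIs would be expected at the level of the other cells, 830 lay at least 3-fold below (11.9%). The median ratio of the 8373 genes was 1.18. A gene that reaches 10 UMIs in the stromal cells is more often one that is high there, so the counts of gene groups below are description, to be read against 22.7%.

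The cells had the transcripts of fibroblasts. Of 10 fibroblast markers outside the gate, 10 had at least 10 UMIs and 10 lay at least 3-fold above the other cells, with a median ratio of 232. Col1a1, the other chain of type I collagen, stood at 12105 CPM (95% CI 11845 to 12369.7) in the stromal cells, 49.6 CPM in the other cells, 7.07 CPM in NK cells and 24.0 CPM in macrophages, and was detected in 93.8% of the stromal cells. The sum gives deep cells more weight. Per stromal cell, Col1a1 had a median of 4170 CPM and an upper quartile of 11332 CPM, both below the summed level. Pdgfra, the receptor for platelet-derived growth factor that marks fibroblasts, had 598 CPM (542 to 659) against 1.88 CPM in the other cells and was detected in 59.5% of the cells. Lum (lumican) was detected in 69.2% and Dpt (dermatopontin) in 81.0%, at 220-fold and 213-fold the level of the other cells. Markers of the adventitial fibroblasts around vessels were sparser, Clec3b with a UMI in 34.9% of the cells and Pi16 in 8.72%. Vim, the intermediate filament protein vimentin that leukocytes express too, had the lowest ratio, 4.50 (4.22 to 4.79), and in cells of 200 to 2500 UMIs it lay slightly below the other cells with a ratio of 0.895.

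**Figure D1:**
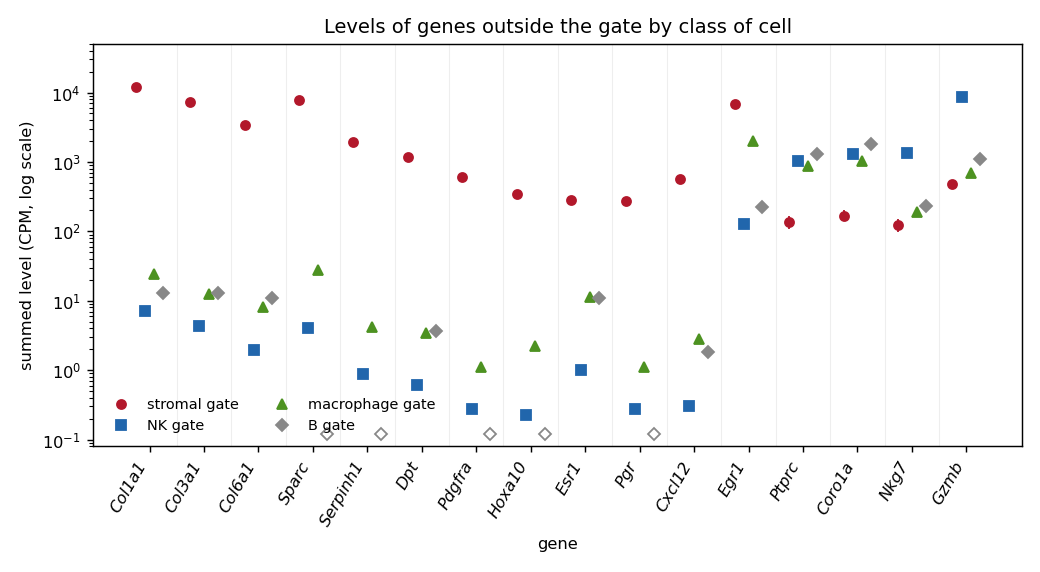
Summed level (CPM, log scale) of 16 genes that the gate did not use, in the stromal gate (circles), NK gate (squares), macrophage gate (triangles) and B gate (diamonds). Bars are 95% Poisson intervals, drawn for the stromal gate only and seen where they exceed the symbol. Open symbols at the lower edge mark a gene without a UMI. Col1a1 stands at 12105 CPM in stromal cells and at 24.0 CPM in macrophages, whereas Gzmb stands at 473 CPM in stromal cells and at 8483 CPM in NK cells.

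The fibrillar collagens Col1a1, Col3a1, Col5a1, Col5a2, Col5a3 and Col11a1, which form the tensile fibres of connective tissue, summed to 20848 CPM (20507 to 21194), with 6 of 6 at least 3-fold above the other cells and a median ratio of 242. The summed ratio was 245 (238 to 252) to all other cells and 1237 (1170 to 1309) without the 67 cells left out of the gate. Col3a1, type III collagen of soft tissue, had 4997 UMIs in 91.3% of the cells. Col11a1, better known from cartilage, had 18 UMIs in 14 cells. The promoters of a gate collagen and of a collagen outside the gate are shown because both genes had a UMI in most of these cells, as the 250 bases before the RefSeq start on GRCm38.p6, with motif matches in capitals. The motif CCAAT and the motif GGGCGG were searched on both strands. The motif TATAAA was searched on the strand of the gene.

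Col1a2, chr6:4505368-4505617, plus strand: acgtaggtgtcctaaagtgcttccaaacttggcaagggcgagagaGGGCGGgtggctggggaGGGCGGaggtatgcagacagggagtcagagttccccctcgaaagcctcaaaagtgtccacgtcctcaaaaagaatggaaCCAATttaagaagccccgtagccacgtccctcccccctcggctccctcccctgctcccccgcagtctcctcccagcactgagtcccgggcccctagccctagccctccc
Col3a1, chr1:45311288-45311537, plus strand: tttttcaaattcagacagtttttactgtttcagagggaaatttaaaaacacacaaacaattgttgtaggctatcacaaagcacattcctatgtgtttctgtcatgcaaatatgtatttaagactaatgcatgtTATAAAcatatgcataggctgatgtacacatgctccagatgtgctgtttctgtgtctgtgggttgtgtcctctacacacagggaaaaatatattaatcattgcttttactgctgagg

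In the Col1a2 promoter, whose GC content is 62%, CCAAT lay at -109 to -105 from the start and GGGCGG at -205 to -200 and at -188 to -183. The Col3a1 promoter, with 35.2% GC, held TATAAA at -117 to -112. The promoters of Col6a1 and Sparc, other matrix genes of these cells, held none of the 3 motifs in this window. Over all 32851 mouse promoters of this length, 33.8% held CCAAT, 32.7% GGGCGG and 7.59% TATAAA. Of the 39 collagen, proteoglycan and matricellular genes past the fold, 28 were matched to 35 promoters, of which 37.1% held CCAAT, 51.4% GGGCGG and 11.4% TATAAA. These matches describe the letters and do not show a bound site.

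Beyond the fibrils, the sheet-forming and bead-forming collagens and the basement membrane were represented. Of 12 other collagens in the files, 11 had at least 10 UMIs and 11 were past the fold, and Col8a1 had no UMI. Col6a1 and Col6a3, which join with the gate gene Col6a2 in type VI microfibrils, had 2308 and 797 UMIs in 90.3% and 58.5% of the cells. Col4a1, a chain of the basement membrane's type IV collagen, was detected in 66.7% of the cells, and Col4a5 in 29.7%. Of 9 laminins, nidogens and the perlecan gene Hspg2, 8 were past the fold, with Nid1, which links laminin to type IV collagen, detected in 73.3% of the cells at 222-fold the level of the other cells. Lama5 had no UMI.

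Proteoglycans, elastic fibre proteins and secreted proteins that bind the matrix were high as a group, with 22 of the 22 genes that had at least 10 UMIs past the fold and a median ratio of 207. Sparc, a collagen-binding glycoprotein, stood at 7851 CPM (7642 to 8064) with 5340 UMIs in 91.8% of the cells, and at 4.02 CPM in NK cells. Fbln1 (fibulin-1) was detected in 154 of the 195 cells, Bgn (biglycan) in 69.2% and Efemp1 (fibulin-3) in 46.7%. Thbs1, the thrombospondin that macrophages also express, had 863 CPM here and 157 CPM in macrophages. Tnc (tenascin C) had no UMI.

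The enzymes and chaperones that make and cross-link collagen showed a graded pattern. Of 16 such genes, 15 were past the fold with a median ratio of 60.7, lower than that of the collagens themselves. Serpinh1, the collagen chaperone Hsp47, had 1301 UMIs in 80.5% of the cells and a ratio of 312 (281 to 347), and Lox, which cross-links collagen and elastin, had a ratio of 350 (277 to 444). The exception was P4hb, a subunit of prolyl hydroxylase that also serves as a general folding enzyme, with a ratio of 1.54 (1.40 to 1.68). Among matrix proteases and their inhibitors, 7 of 7 genes with at least 10 UMIs were past the fold. Timp2 was detected in 88.2% and Mmp14, a protease at the cell surface, in 67.2% of the cells. Mmp9 and Mmp10 had no UMI in these cells.

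By the ratio to the other cells, the leading genes with at least 100 UMIs in at least 20% of the cells were Galnt15 (398), Prss23 (372), Col6a4 (369), Col4a5 (354) and Igfbp3 (352). Galnt15 adds the first sugar to O-glycosylated proteins and was detected in 35.9% of the cells. The transcription factor Prrx1, known from limb mesenchyme, the thyroid hormone activating enzyme Dio2 and the neurotrophin receptor Ntrk2 were among the leading 25, in 36.4%, 20.0% and 42.6% of the cells. The genes were chosen by this ratio, so their ratios are description. Their order depended on the 67 cells left out of the gate. Without those, C1qtnf3 (2755) and Efemp1 (2213) lay above Galnt15 (1437), and Col6a4 stood at 821.

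The cells carried the hormone receptors of uterine stroma. Esr1 (oestrogen receptor alpha) had 193 UMIs in 91 cells and Pgr (progesterone receptor) 187 UMIs in 75 cells. Both were detected in 53 cells and neither in 82, and a cell without a UMI may still carry the transcript at this depth. Nr2f2, the nuclear receptor COUP-TFII that acts downstream of progesterone in stroma, had 273 UMIs in 57.4%. The levels of Esr1, Pgr and Nr2f2 were 99-fold, 234-fold and 218-fold those of the other cells. In macrophages Esr1 stood at 11.3 CPM, against 284 CPM in the stromal cells and 0.992 CPM in NK cells. Esr2 had no UMI. The receptor cochaperones Fkbp4 and Fkbp5, which most cells use, had ratios of 1.02 and 0.370 and did not reach the fold.

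Of 15 genes linked to decidualization, 10 had at least 10 UMIs and 10 were past the fold, with a median ratio of 123. Hoxa10 and Hoxa11, homeobox genes that pattern the uterus, had 235 UMIs in 48.2% and 107 UMIs in 29.2% of the cells. Adamts1, a protease of versican, was detected in 54.4% and Gja1, the gap junction protein connexin 43, in 34.9%. The other 5 had fewer than 10 UMIs. Prl8a2, a prolactin-family hormone of decidual cells, had no UMI, which allows a level of up to 3 UMIs, or 4.41 CPM. Wnt4 had 8 UMIs in 8 cells, and Ptgs2, the prostaglandin synthase COX-2, had 6 UMIs. On the scale where 3 UMIs in the stromal cells are 4.41 CPM, Ptgs2 stood at 156 CPM in macrophages. Bmp2, which drives decidualization, had 20 UMIs in 16 cells and was 9.19-fold above all other cells but 0.766-fold of the macrophage level. Since virgin and gd8.5 cells are mixed, low levels in the sum do not give the level at gd8.5.

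Of the insulin-like growth factor (IGF) system, 7 of 7 genes with at least 10 UMIs were past the fold. Igf1 stood at 735 CPM in 49.7% of the cells, against 80.2 CPM in macrophages and 0.865 CPM in NK cells. Of the binding proteins that hold IGF1 in the tissue, Igfbp5, Igfbp3, Igfbp4 and Igfbp6 were past the fold with 677, 645, 557 and 383 UMIs. Igfbp2 had 2 UMIs and Igf2 none. Growth factor receptors followed, with 6 of 6 genes past the fold among those with at least 10 UMIs: Pdgfrb had 43 UMIs in 30 cells, of which 26 also had Pdgfra, and Egfr and Fgfr1 were detected in 23.1% and 27.2% of the cells. Of the receptors for transforming growth factor beta and bone morphogenetic proteins, 8 of the 9 with at least 10 UMIs were past the fold. Tgfbr3 (betaglycan) had a ratio of 71.1, whereas Tgfbr2, which NK cells express as well, had a ratio of 3.94.

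Signals that can reach NK cells were mixed. Of 15 chemokines, 8 had at least 10 UMIs and 7 of these were past the fold, while 4 had no UMI (Ccl19, Ccl21a, Cxcl5 and Cxcl15). Cxcl12, the ligand of Cxcr4, had 382 UMIs in 58.5% of the cells and stood at 562 CPM (507 to 621), against 2.82 CPM in macrophages and 0.305 CPM in NK cells. Cxcl1, a neutrophil attractant, and Ccl2 and Ccl7, which attract monocytes, were held by few cells. Cxcl1 had 372 UMIs in 39 cells, Ccl2 328 UMIs in 31 cells and Ccl7 164 UMIs in 25 cells. Ccl2 was 9.28-fold and Ccl7 5.53-fold above all other cells, but both lay below the macrophages, at 0.692-fold and 0.373-fold. Cxcl16 had a ratio of 2.97 and did not reach the fold.

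Cytokines known to sustain or direct NK cells were sparse. Il15, the survival factor of NK cells, had 5 UMIs in 5 cells (7.35 CPM, against 36.4 CPM in macrophages), Il18 had 9 UMIs and Il21 had none. Of 8 genes of this group with at least 10 UMIs, 6 were past the fold. Csf1, the macrophage growth factor, was detected in 23.6% of the cells with a ratio of 34.9. Kitl, the ligand of Kit, had 22 UMIs. Tgfb2 had 60 UMIs in 38 cells, whereas Tgfb1 lay below the other cells with 4 UMIs and a ratio of 0.128. Il6 passed the fold with 40 UMIs, but 39 of them came from 1 cell.

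Ligands of NK cell receptors did not share the pattern of the matrix genes. Of 10 with at least 10 UMIs, 1 was past the fold and the median ratio was 0.666. It was Nectin3, an adhesion molecule that had 27 UMIs in 19 cells and a ratio of 104. The class I histocompatibility genes H2-K1 and H2-D1, whose products hold NK cells in check, were detected in 78.5% and 94.9% of the stromal cells at 0.485-fold and 0.608-fold the level of the other cells, and B2m at 0.637-fold. Ulbp1, a ligand of the activating receptor NKG2D, had 3 UMIs and Cd274, which encodes PD-L1, had 7, with ratios of 0.232 and 0.295.

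Complement and vessel-directed genes were past the fold in most cases. Of 9 complement genes with at least 10 UMIs, 8 were past the fold. Serping1, the C1 inhibitor, was detected in 83.6% of the cells at 228-fold the level of the other cells, and C1s1, a protease of the C1 complex, in 76.4%. Cd55, which protects cells from complement, was lower than in the other cells (ratio 0.309, against 3.21 to macrophages alone), with 435 CPM in NK cells. Of 16 angiogenic genes, 12 had at least 10 UMIs and 12 were past the fold. Vegfd had 102 UMIs with a ratio of 258, and Vegfa, which NK cells also held, had 124 UMIs with a ratio of 5.73. Placental growth factor Pgf and Angpt2, which were not past the fold, had 1 UMI each. All 13 Wnt and hedgehog genes with at least 10 UMIs were past the fold, led in UMIs by the secreted Wnt inhibitor Sfrp4 and the hedgehog coreceptor Gas1, with 290 UMIs each. The hedgehog targets Gli1 and Ptch1 had 45 and 63 UMIs.

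Immediate-early genes, which are induced within minutes of a stimulus and also by tissue digestion, were high in both stromal cells and macrophages. Of 14 such and heat shock genes, 9 were past the fold with a median ratio of 4.45. Egr1 had 4691 UMIs in 95.4% of the cells and stood at 6897 CPM, against 2013 CPM in macrophages and 126 CPM in NK cells. Per cell, the list had a median of 28751 CPM in stromal cells, 20279 CPM in macrophages, 4444 CPM in B cells and 2734 CPM in NK cells. The macrophage level was thus near that of the stromal cells, and Zfp36, which shortens the life of inflammatory mRNA, lay below it at 0.799-fold. The heat shock genes Hspa1a and Hspa1b had ratios of 1.36 and 1.24.

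Markers of other cell types that a uterine digest could hold differed by type. The keratins Krt7, Krt8, Krt18 and Krt19, the endothelial gene Vwf and the mesothelial genes Upk3b and Lrrn4 had no UMI. Of 6 pericyte genes, Pdgfrb, which fibroblasts also carry, was past the fold (ratio 512), Abcc9 and Notch3 had 6 and 4 UMIs, and 3, Rgs5 and Kcnj8 among them, had none, at a summed ratio of 13.8. Of the smooth muscle genes, 4 of 4 with at least 10 UMIs were past the fold, but Acta2 was detected in 17.4% of the cells and Cnn1 in none. Wt1, a transcription factor of mesothelium and of uterine stroma, had 106 UMIs in 35.4% of the cells. Cdh5, Eng and Emcn, known from endothelium, had 27, 20 and 10 UMIs with ratios of 134, 17.2 and 170, whereas Pecam1 was lower than in the other cells. Among trophoblast genes, Peg10 had 7 UMIs and Prl3d1 and Ascl2 none. The epithelial genes Epcam and Cdh1 had 6 and 4 UMIs. Hbb-bs and Hba-a1, the globins of red blood cells, had 16 and 14 UMIs. The mast cell genes summed to 2 UMIs, the lymphatic endothelial genes to 2, the neutrophil genes to 1 and the T cell genes to 5. The T cell level was partly set by the gate, which took no cell with a Cd3e UMI.

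Leukocyte transcripts were low but present, although the sort was for CD45. The low levels were partly set by the gate, which took no cell with an Ncr1, Cd3e or Cd79a UMI or over 2 C1q UMIs. The 8 shared leukocyte genes summed to 1408 CPM (1320.6 to 1500.5) in the stromal cells, against 13735 CPM in NK cells and 13160.3 CPM in macrophages. Of them, 8 of 8 were lower than in the other cells by at least 3-fold, against 11.9% of the 6994 genes over all. Ptprc, which encodes CD45, had 92 UMIs in 46 cells (23.6%, 95% CI 17.8% to 30.2%), against 91.0% of NK cells, and with every cell thinned to 1000 UMIs the shares were 14.1% and 63.2%. Of the 14 NK genes outside the gate, 14 were lower by at least 3-fold, at a summed ratio of 0.0748, again with cells holding Ncr1 left out by the gate. Gzmb (granzyme B) had a UMI in 65.6% of the stromal cells, in 73.0% of macrophages and in 70.6% of B cells, and after thinning in 39.6%, 40.8% and 53.1%, against 89.1% of NK cells. The share in stromal cells was thus no higher than in macrophages and B cells, and whether stromal cells expressed Gzmb was not tested. Per cell, 22 stromal cells had no UMI of the 8 leukocyte genes, 45 had at least 5 and 15 had at least 10, up to 101. Whether these UMIs came from the stromal cells themselves was not tested.

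The comparison gates for NK cells and macrophages let through at most 1 and at most 2 UMIs of the 5 gate genes per cell, so immune cells with more stromal RNA were left out of them and the following shares are description. Col1a1 had a UMI in 4.47% of the gated NK cells (247 of 5523) and in 7.21% of the gated macrophages, or 0.844% and 2.57% after thinning, against 85.9% of the thinned stromal cells. In the 34 bulk libraries, with 11862089 to 66468883 counts each, Dcn and Col1a1 were listed with counts mostly in the libraries sorted from the uterus without an in vitro step. Of these 12 libraries, Dcn had counts in 12, at 0.275 to 76.0 CPM with a median of 3.01 CPM, and Col1a1 in 10, at up to 111 CPM with a median of 1.03 CPM. Of the 22 libraries in vitro, each had counts in 1, at up to 0.0701 CPM for Dcn and 0.140 CPM for Col1a1, while Col1a2 had counts in 7 (up to 0.432 CPM) and Col6a2 in 4 (up to 0.890 CPM). In the 4 libraries labelled 0 h, Dcn and Col1a1 were at 0, Col1a2 had 6 and 2 counts in 2 of them and Col3a1 had 1 count in 1. The highest values of Dcn and Col1a1 were in replicate 1 of CB_low, the gd8.5 trNK cells sorted for low CD55 and low 4-1BB. Without it, the highest were 9.68 CPM and 7.12 CPM. Gzmb ranged from 248 to 18784 CPM in the sorted libraries, with the lowest value in replicate 1 of the virgin trNK cells and 1994 CPM as the lowest without it, and from 742 to 38938 CPM in vitro, where the highest was replicate 2 of the IL-21 culture. What sets the libraries in vitro apart for Dcn and Col1a1 was not tested.

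The stromal cells were not uniform. Clustering without the gate genes gave 4 groups of 75, 55, 33 and 32 cells, which are described by number and leading genes, since none of the marker lists fixed for other cell types reached 3 genes in groups 1 and 4, group 2 did so for NK and leukocyte genes although Tac2, Spink8 and Ednrb led it, with the immune genes Itgax, Cd7 and Cd74 also among its leading 10, and group 3 did so for fibroblast genes that all groups share. Genes of the same cells formed the groups, so their differences are description with no test. Whether a group came from virgin or gd8.5 mice cannot be told apart.

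**Figure D2:**
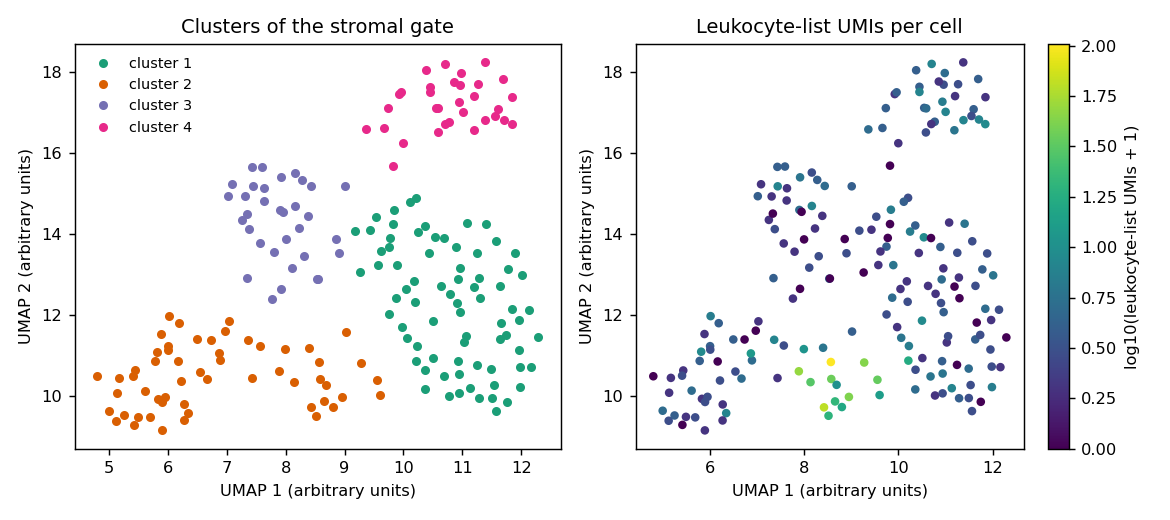
The 195 stromal cells on UMAP axes (arbitrary units), coloured by group in the left panel and by log10(UMIs + 1) of the 8 leukocyte genes in the right panel. Group 4 lies apart at the top, and the cells with the most leukocyte UMIs, up to 101, lie together within group 2.

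Group 1, with 75 cells (38.5%), was set apart by Plekha6, Jam2, Galnt15, Mmp3 and Scn7a. Galnt15 had a UMI in 56 of its 75 cells and in 9, 3 and 2 cells of groups 2, 3 and 4, at 932 CPM against 74.5 CPM. The complement list was highest here, at 6783 CPM (6436 to 7145), 2.72-fold the other groups together. C3, the central complement protein, had 166 of its 232 UMIs in group 1. Pdgfra stood at 1056 CPM here and at 245 to 531 CPM in the other groups. Cxcl12 also was highest in group 1, at 1008 CPM.

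Group 2, with 55 cells (28.2%), was led by Tac2, which encodes the neuropeptide neurokinin B. Tac2 had 267 UMIs in 24 of the 55 cells and none in the other stromal cells, at least 312-fold higher against a floor of 3 UMIs. Of these 24 cells, 18 had a UMI of Prlr, the prolactin receptor, 15 of Ednrb, an endothelin receptor, and 8 of Pgr. Ednrb had 118 of its 125 UMIs in this group and Prlr 125 of 151. Ctla2a, a cysteine protease inhibitor named for its discovery in cytotoxic T cells, had 3509 UMIs here, 23266 CPM, against 5123 CPM in group 1 and 5465 CPM in group 3. Sfrp4 had 158 of its 290 UMIs in group 2, whereas the fibrillar collagens stood at 8719 CPM, near the 9671 CPM of group 4 and below groups 1 and 3. Without the cells of at least 5 leukocyte UMIs, they stood at 11602 CPM in group 2 and at 10143 CPM in group 4.

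Group 2 also held the most immune RNA. The 8 leukocyte genes stood at 3872 CPM in it and at 444 to 937 CPM in the other groups, and 20 of its 55 cells had at least 5 leukocyte UMIs. Of the 24 cells with Tac2, 3 had at least 5, whereas 17 of the 31 cells without Tac2 had. Without all cells of at least 5 leukocyte UMIs, a comparison chosen after seeing the data, 35 cells remained in group 2 and 7 of its 10 leading genes were still at least 3-fold above the other groups. Tac2, Ednrb and Prlr were among them, at 389-fold or more, 72.8-fold and 17.7-fold. The leading genes Itgax, Cd7 and Cd74, which are immune genes, fell to ratios of 2.85, 2.71 and 1.71. The cells set aside were chosen by their leukocyte UMIs, which lowers other immune genes that they carry. Tac2 had no UMI in the other groups to begin with. The removal therefore cannot decide which leading genes the stromal cells expressed, and its values are description. Finer clustering (resolution 1.0) split group 2 into 39 cells and 16 cells, and the 16 had a median of 24.5 leukocyte UMIs.

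Group 3, with 33 cells (16.9%), had the most collagen. The fibrillar collagens summed to 48654 CPM (ratio 3.86 to the other groups). They took a median of 4.23% of a cell's UMIs, against 0.667% to 0.770% in the other groups. Serpinh1 stood at 4184 CPM against 1061 to 1525 CPM. Its leading genes were Aldh1l2, a mitochondrial folate enzyme, Nrk, a kinase, Inhbb, the beta B subunit of inhibin and activin, and Ces2g, a carboxylesterase. The retention receptor Kdelr3, which returns chaperones to the endoplasmic reticulum, had a UMI in 19 of the 33 cells, and the stress-response factor Atf5 in 21. The gate UMIs of these cells had a median of 146, against 22 to 43 in the other groups, and the gate uses collagen genes. At a lower resolution of 0.3, groups 1 and 3 formed a single group of 108 cells.

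**Figure D3:**
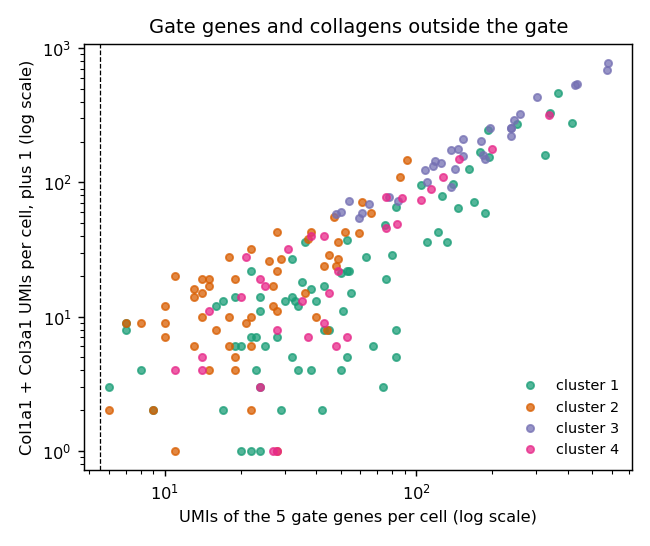
UMIs of Col1a1 and Col3a1 together, plus 1, against UMIs of the 5 gate genes in each of the 195 stromal cells (both log scales), coloured by group, with the gate threshold as a dashed line. The cells of group 3 lie at the upper right, with a median of 146 gate UMIs.

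Group 4, with 32 cells (16.4%), was led by Slc6a2, the noradrenaline transporter, Tex15, Pkdcc, a secreted kinase of skeletal development, and the chemokine Ccl2. Ccl2 had 282 of its 328 UMIs in 16 of these cells, at 1722 CPM against 89.1 CPM in the other groups, and Ccl7 had 136 of 164 UMIs. The chemokine list reached 5684 CPM, 3.21-fold the other groups. The hedgehog targets Gli1 and Ptch1 had 29 of 45 and 38 of 63 UMIs in group 4, and Wnt5a, a Wnt ligand of mesenchyme, had 73 of 126. Hand2, a progesterone target that restrains growth of the epithelium, stood at 208 CPM in group 4 and 166 CPM in group 2, against 33.3 and 12.9 CPM in groups 1 and 3. Prlr had no UMI in this group, although it was detected in 50 of the 195 cells. Cdh5, which otherwise marks endothelium, had 22 of 27 UMIs here, in 9 cells. Without the cells of at least 5 leukocyte UMIs, a comparison chosen after seeing the data, 24 cells remained in group 4. In them Ccl2 had 154 UMIs, Ccl7 51 and Cdh5 only 6, against 3 Cdh5 UMIs in the other groups. The 10 leading genes of group 4 were all still at least 3-fold above the other groups.

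Cell-cycle transcripts were held by few of the stromal cells. Of 12 cell-cycle genes, none was past the fold upwards, against 22.7% over all genes. Lower by at least 3-fold were 4 of the 12 (Birc5, Pclaf, Rrm2 and Mcm2), against 11.9% of the 6994 genes over all. The summed ratio of the list to the other cells was 0.515 (0.469 to 0.564). The list summed to 692 CPM in the stromal cells, 1364 CPM in NK cells, 961 CPM in macrophages and 424 CPM in B cells. No UMI of the list was found in 121 of the 195 cells, and the 11 cells with at least 5 held 80.0% of the 471 UMIs. A single cell of group 4, the deepest of all with 21724 UMIs, held 193 of them. Group 4 stood at 2125 CPM of the list and the other groups at 90.1 to 357 CPM. Without the cells of at least 5 leukocyte UMIs, which include this cell, group 4 stood at 779 CPM (612 to 978) with 5 of 24 cells at 5 UMIs or more, and the other groups at 111 to 360 CPM.

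**Figure D4:**
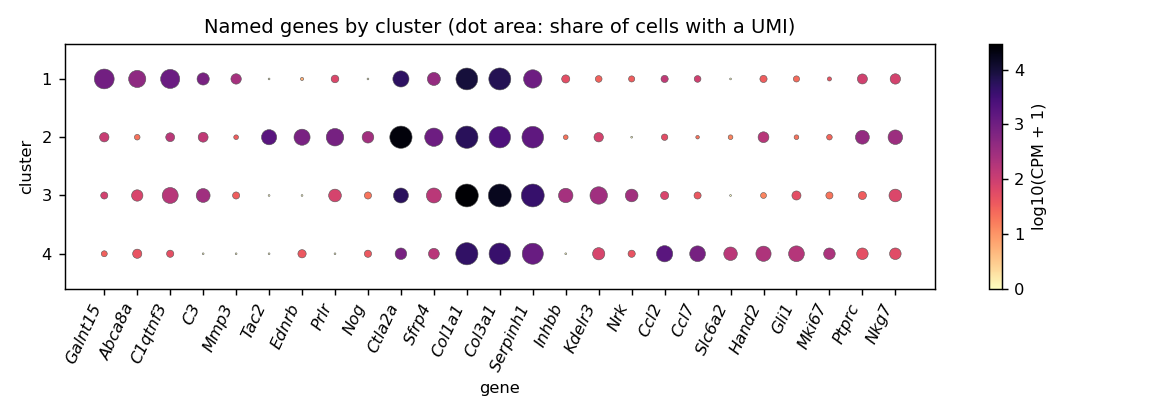
Level of named genes (columns) in the 4 groups of stromal cells (cluster number, vertical axis), with colour for log10(CPM + 1) and dot area for the share of cells with a UMI. Tac2 appears in group 2 alone (267 UMIs in 24 cells), and Ccl2 and Ccl7 are strongest in group 4.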

How the data were processed

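Unnormalized UMI counts were deposited by the authors for each cell and gene, made with the BD Rhapsody WTA pipeline 1.9.1 on GRCm39. Per the labels, 2 files belong to virgin and gd8.5 mice, but they hold the same 15175 cells with different genes (6821 and 28416), so they were joined by cell number. The bulk libraries were deposited as raw read counts per gene on mm10, aligned with HISAT2 2.1.0 per the submitters' processing notes. The members, gene lists and comparison gates were chosen with earlier results of these data known.

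Counts were summed over cells and scaled to CPM, with exact Poisson intervals, and ratios are of CPM with exact intervals. A gene was past the fold at a ratio of 3 with at least 10 UMIs. The scale does not model free RNA. Groups came from Leiden clustering (scanpy 1.11.5, leidenalg 0.10.2, Python 3.11.15) of 2000 variable genes, 20 components, 15 neighbours and resolution 0.5, without gate, mitochondrial, ribosomal and haemoglobin genes. The study's methods limit cells to 200 to 2500 UMIs; no such limit was used here, since it would leave out the deeper cells. Doublets were not removed, as Scrublet marked 0 of 13084 cells and was taken as not having worked. Genes named are those of the lists, the 25 largest ratios among genes with at least 100 UMIs in 20% of the stromal cells, the 10 with the most UMIs past the fold, and for each group the 10 largest ratios among genes with at least 20 UMIs in 20% of its cells. Genes such as Myh11, Mmp2 and Cebpb were not analysed here.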

Additional observations from a re-analysis of the deposited data

How the results depend on the processing

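Within cells of 200 to 2500 UMIs, 95 cells remained (2.19% of cells), and 770 genes were higher; Aspn, Col4a3 and Il6 had a ratio of 0, Epcam 1.05, Ncoa1 0.867 and Vim 0.895. With 200 to 2500 genes, the share was 1.89%. With no filter on UMIs 4683 genes were higher and 19195 lower, and with at least 30 UMIs 1018 and 522. The immune RNA in the gated cells, as the level of the 8 leukocyte genes, was 1594 CPM after thinning to 1000 UMIs. Against NK cells alone, Adgre1, Fcgr1 and Mrc1 had ratios of 4.08, 3.66 and 1.02. Against macrophages alone, Bmp2, Ccl2, Ccl7, Ier3 and Zfp36 had 0.766, 0.692, 0.373, 0.515 and 0.799, and Cd55, Epcam, Itga1 and Txk 3.21, 1.12, 1.61 and 1.09. The cause was not tested beyond the change of cells compared. Of 232 named genes past the fold, 209 were past it with 200 to 2500 UMIs per cell, 228 against NK cells, 185 against macrophages, and at least 225 in each of the other comparisons. The number of groups ranged from 3 to 6, and with 1000 variable genes the cells of group 1 were spread over 3 groups (adjusted Rand index 0.417). The alternative without Scrublet doublets was not run, since none were marked. No paired analysis was possible because these results come from no test and all cells form 1 sample. At this depth a gene without a UMI may hold up to 3 UMIs in the summed stromal cells.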
